A study of Homo sapiens with 8 samples.

Results

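The genes examined here are 46 DNA replication and S-phase genes out of 86369 gene identifiers in the count table. They were listed by name, at a time when earlier results of these data were known. They cover origin licensing, activation of the replicative helicase, the sliding clamp and its loader, the replicative polymerases, lagging-strand processing, nucleotide supply, the G1/S switch and assembly of chromatin behind the fork. They were followed in HepG2, an established hepatocellular carcinoma line that divides in culture. The 4 siNAT10 libraries came from cells lipofected with a short interfering RNA against NAT10, an RNA cytidine acetyltransferase, and the 4 siCtrl libraries from cells lipofected in the same way with a negative control siRNA. Both groups carried the same line, medium and transfection, RNA was taken 2 days later, and replicates 1 and 2 of each group formed batch 1 and replicates 3 and 4 batch 2. The labels do not say what a batch was, whether the replicates were separate cultures, or which siRNA sequences were used. The p-values below therefore measure the spread between these 8 libraries, which may be technical.

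DNA replication is prepared in G1, when the origin recognition complex with CDC6 and CDT1 loads the ring-shaped MCM2-7 helicase onto origins. In S phase CDC45 and the GINS complex join MCM2-7 to make the active helicase, and polymerases held by the PCNA clamp copy both strands. Many of these genes are transcribed at the G1/S transition, when cyclin D and cyclin E kinases release E2F factors from the retinoblastoma protein. A bulk library averages over all cells of a culture, so that fewer cells in S phase and less RNA per S-phase cell cannot be told apart.

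The libraries held 9731718 to 27977110 counts, and the 46 genes together took 0.280% to 0.346% of them. Levels are given as CPM, counts scaled to a common library size after TMM adjustment. The method counts 3′ ends of polyadenylated RNA, so that a level does not grow with transcript length. NAT10 (chromosome 11, 34105617 to 34147670) stood at 44.7, 39.2, 77.8 and 48.9 CPM in siCtrl replicates 1 to 4 and at 13.1, 12.2, 20.1 and 22.3 CPM in siNAT10 replicates 1 to 4. Every siNAT10 library was below every siCtrl library. NAT10 RNA fell by 1.66 on the log2 scale (SE 0.14; adjusted p 2.0e-05, edgeR quasi-likelihood test; exact two-sided permutation p 0.029, the smallest that the 70 arrangements allow). Permuted within batches, a choice made after the data were seen, the exact two-sided p was 0.056, the smallest that those 36 arrangements allow. The hepatocyte products ALB and AFP stood at 3232 to 4627 and 1265 to 1860 CPM in all libraries, so that defining products of the labelled line were present. The summed level of 8 hepatocyte genes was 7356 to 7917 CPM in siCtrl and 5969 to 6587 CPM in siNAT10 libraries. Most of this sum was ALB and AFP, with log2 fold changes of -0.37 and -0.28. TTR (-0.30) and SERPINA1 (-0.46) also had estimates below 0, APOA1 (-0.01) and HNF4A (0.09) lay near 0, and FGB (0.37) was above it. None of these had an adjusted p under 0.05 (edgeR), and SERPINA1 stood at only 1.70 to 13.2 CPM. The part of these genes in the results was not tested. Sums of fibroblast, endothelial and leukocyte genes were at most 3.90 CPM, and COL1A2, KDR and PTPRC were at 0 in all libraries.

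Of the 46 genes, 45 had enough counts to be tested among the 13840 genes kept. E2F2, a transcription factor of the G1/S switch, had 0 counts in all 8 libraries, where 3 counts would correspond to 0.104 to 0.293 CPM. A listed 0 is not proof of absence in this table, since APOB, a hepatocyte product, was also listed at 0 in 7 of 8 libraries.

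The 5 core promoter stretches below, taken from genes with a match, show letters that are found in promoters bound by E2F factors. The genes were not chosen by promoter sequence. They were chosen as S-phase and G1/S genes, so that the letters are not independent of the choice. The letters of 4 E2F motifs (TTTCCCGC, TTTCGCGC, TTTGCCGC and TTTGGCGC) were searched on both strands from 250 bases before to 50 after each RefSeq start site. They occurred in 22 of 49 windows of these genes (44.9%) and in 1164 of 35116 windows of all genes (3.31%). By gene, 21 of 38 with a window held a match (55.3%), and the genes without a window were CCND1, CCNE2, CDK2, GINS4, MCM4, MCM5, POLD3 and RPA2. The CCAAT box was in 59.2% of the windows against 34.6% of all, and the CHR letters TTTGAA or TTCGAA, found in promoters of G2/M genes, in 4.08% against 16.4%. Some genes have more than 1 window, and a match shows letters and not binding. Stretches upstream of the start site follow, 5′ to 3′ on the gene's strand (RefSeq, GRCh38.p14), with E2F letters on either strand in capitals. MCM6, chr2:135876510-135876549, minus strand, holds 2 overlapping matches.
MCM6: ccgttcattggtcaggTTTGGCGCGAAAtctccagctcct
CDT1, chr16:88803738-88803777, plus strand, has its match 35 bases upstream of the start.
CDT1: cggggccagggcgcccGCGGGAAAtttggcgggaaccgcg
PCNA, chr20:5126658-5126697, minus strand, has it 59 bases upstream.
PCNA: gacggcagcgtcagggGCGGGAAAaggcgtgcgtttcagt
TYMS, chr18:657598-657637, plus strand, has it 39 bases upstream.
TYMS: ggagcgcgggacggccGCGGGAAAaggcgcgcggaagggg
E2F1, chr20:33686395-33686434, minus strand, holds 2 matches, the farther one 33 bases upstream.
E2F1: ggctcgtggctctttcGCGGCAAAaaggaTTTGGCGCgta

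Most of the 45 genes were readily measured. In siCtrl libraries 11 averaged 100 CPM or more, 27 lay between 10 and 100 CPM and 7 lay below 10 CPM, with a median of 39.4 CPM. Cyclin D1 (CCND1) averaged 385 CPM, followed by RRM2 at 271, MCM3 at 212, TYMS at 201, MCM7 at 194, PCNA at 166, FEN1 at 161, MCM2 at 158 and RRM1 at 154 CPM. All neighbours in this order overlapped in their siCtrl libraries, and in batch 1 RRM2 (285 and 308 CPM) was above CCND1 (267 and 225 CPM). The lowest were cyclin E2 (CCNE2) at 1.33, UHRF1 at 3.14 and POLE2 at 5.00 CPM. The 6 subunits of the MCM2-7 ring, which is built from 1 copy of each, did not have equal CPM. MCM6 was the lowest in every library, and the ratio of MCM7 to MCM6 was 14.9 to 17.5 in siCtrl and 18.8 to 24 in siNAT10 libraries. How fully the 3′ end of each gene was counted was not tested, so that CPM of different genes may not compare as RNA amounts.

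With NAT10 knocked down, no gene of the replication list was called at an adjusted p under 0.05. The count was 0 of 45, where 2.28% of all 13840 tested genes were called (0.816% higher and 1.46% lower; edgeR quasi-likelihood test with batch as a term). At an unadjusted p under 0.05 there were 5 of 45, beside 15.7% of all genes, with RRM2 and RFC5 on the lower side and POLD1, MCM2 and RPA1 on the higher. The replicate block and DESeq2 each gave 5 at the unadjusted threshold (17.3% and 14.2% of the same 13840 genes) and 1 call, RRM2. Estimates lay above 0 for 23 genes and below 0 for 22. Their median log2 fold change was 0.017, beside -0.0024 over all genes, and 20 of 45 estimates lay within 0.1 of no change.

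The intervals say how large a change could have been missed. The 95% intervals had a median half-width of 0.26 on the log2 scale (0.21 to 0.84), and 40 of 45 included 0. For 41 of 45 genes the whole interval lay within a 1.5-fold change in either direction, as it did for 60.2% of all genes. Intervals are wider at low counts, and these shares were not matched for level. The interval lay within a 2-fold change for 44 genes, and CCNE2, with 9 to 52 counts per library, was the exception. For 3 of 45 genes the siNAT10 libraries lay wholly outside the siCtrl range, on the same side, in batch 1 and in batch 2, beside 14.7% of all genes. POLD1 did so on the higher side (6.76% of all genes) and RRM2 and RFC5 on the lower side (7.9% of all genes). RFC5 alone had no overlap between all 4 siCtrl and all 4 siNAT10 libraries, which 5.4% of all genes showed.

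**Figure D1:**
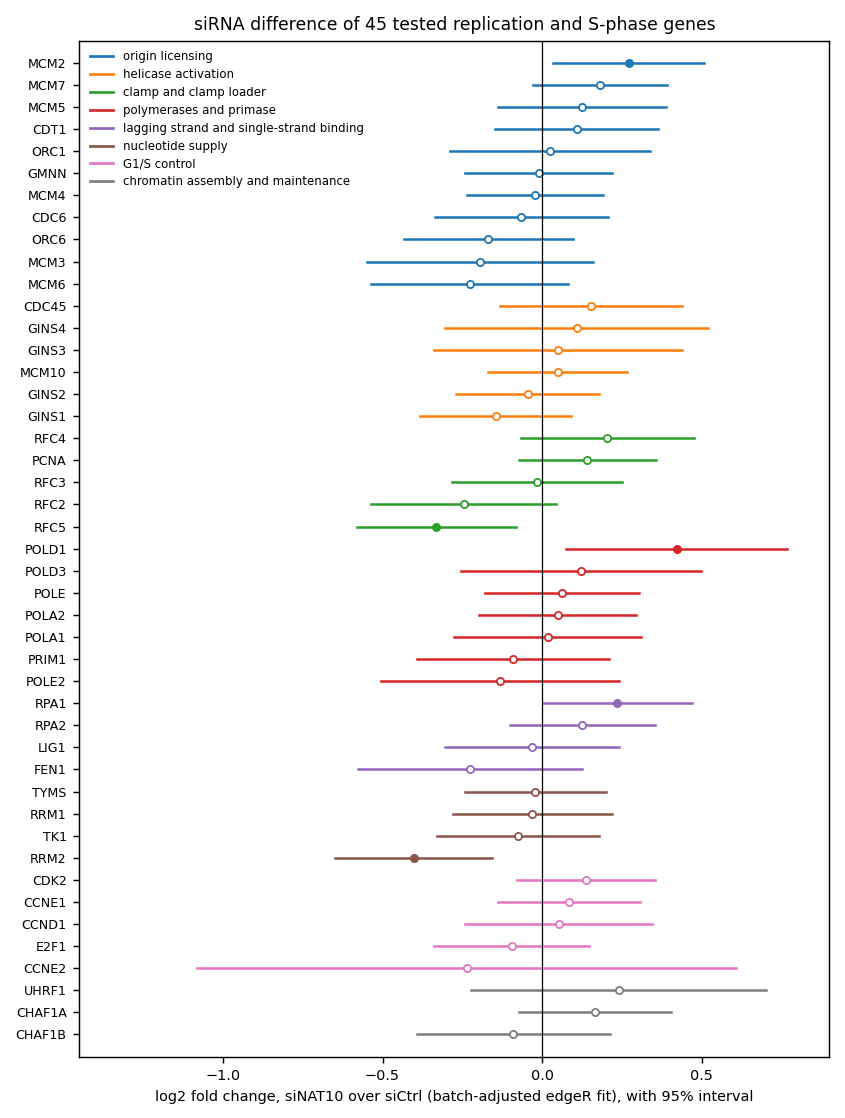
Fitted log2 fold change of siNAT10 over siCtrl (horizontal axis, batch as a term) for the 45 tested genes (vertical axis), coloured by role, with 95% intervals as lines and filled points for an unadjusted p under 0.05. The 5 filled points are MCM2, RFC5, POLD1, RPA1 and RRM2, and 40 of 45 intervals cross 0.

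Among 11 origin licensing genes, 0 were called, 5 estimates were above 0 and 6 below, and the median was -0.011. MCM2 (chromosome 3, 127598410 to 127622436), a subunit of the helicase ring, stood at 130.2, 168, 178 and 158 CPM in siCtrl replicates 1 to 4 and at 178, 208, 177 and 201 CPM in siNAT10. Both siNAT10 libraries exceeded both siCtrl libraries in batch 1, whereas 1 siNAT10 library lay between the siCtrl libraries in batch 2. The means were 158 ± 20.4 and 191 ± 15.6 CPM (SD, n = 4 each), and the log2 fold change was 0.27 (SE 0.11; 95% interval 0.03 to 0.51; adjusted p 0.24, edgeR).

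Estimates of the other ring subunits lay on both sides of 0. MCM7, with the highest mean over all 8 libraries among licensing genes, stood at 206, 226, 171 and 172 CPM in siCtrl and 213, 231, 218 and 212 CPM in siNAT10, and its log2 fold change was 0.18 (-0.03 to 0.39). The groups overlapped over all libraries and were apart in batch 2. MCM3, which had the highest siCtrl mean of them, stood at 219, 165, 293 and 171 CPM in siCtrl and 169, 195, 228 and 144 CPM in siNAT10. Its siCtrl libraries differed more from each other than the group means did, and its interval ran from -0.55 to 0.16 around -0.20. MCM5 had a log2 fold change of 0.13, MCM4 -0.02 and MCM6 -0.23 (-0.53 to 0.08).

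The loading factors and their inhibitor lay near 0. CDT1, which brings MCM2-7 to origins, had a log2 fold change of 0.11 (-0.15 to 0.36), and geminin (GMNN), which binds and inhibits CDT1, -0.01 (-0.24 to 0.22). CDC6, the ATPase of the loading reaction, had -0.07 (-0.34 to 0.21), and ORC1 and ORC6 of the origin recognition complex 0.02 and -0.17. The ratio of CDT1 to GMNN was 3.51, 3.66, 2.38 and 2.72 in siCtrl and 3.76, 4.10, 2.46 and 3.06 in siNAT10 replicates 1 to 4. It was lower in all 4 libraries of batch 2 than in any of batch 1, and the groups overlapped.

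None of 6 helicase activation genes was called, and their median was 0.05. CDC45, which joins the ring at origin firing, was the farthest from 0 at 0.15 (-0.13 to 0.44), with siCtrl at 20.6, 23.8, 16.7 and 14.8 CPM and siNAT10 at 20.7, 22.5, 23.5 and 16.9 CPM. The 4 GINS subunits lay between -0.15 for GINS1 and 0.11 for GINS4, and MCM10, a firing factor, at 0.05. GINS2 was the most abundant of these 6 and had -0.05 (-0.27 to 0.18).

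The PCNA clamp and its loader RFC held 5 of the genes, and 0 were called. PCNA, the ring that tethers polymerases to DNA, stood at 146, 158, 183 and 177 CPM in siCtrl and 147, 187, 199 and 199.6 CPM in siNAT10. In batch 2 both siNAT10 libraries were above both siCtrl libraries, whereas in batch 1 the lower of them lay between the siCtrl libraries. Its log2 fold change was 0.14 (-0.07 to 0.36).

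RFC5 (chromosome 12, 118013588 to 118033130), a small subunit of the loader, stood at 32.8, 40.6, 30.2 and 36.0 CPM in siCtrl and 24.7, 28.5, 28.8 and 28.8 CPM in siNAT10. All 4 siNAT10 libraries were below all 4 siCtrl libraries, with 30.2 and 28.8 CPM as the nearest pair. The means were 34.9 ± 4.50 and 27.7 ± 1.99 CPM (SD, n = 4 each), and the log2 fold change was -0.33 (SE 0.12; -0.58 to -0.08; adjusted p 0.16, edgeR). The other loader subunits lay on either side: RFC2 at -0.25 (-0.54 to 0.04), RFC3 at -0.02 and RFC4 at 0.20 (-0.07 to 0.48).

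The 7 polymerase and primase genes had a median of 0.05, with 0 called. POLD1 (chromosome 19, 50384204 to 50418018), the catalytic subunit of polymerase delta, stood at 17.6, 26.9, 11.4 and 20.2 CPM in siCtrl and 29.9, 28.4, 21.4 and 21.1 CPM in siNAT10. Within each batch both siNAT10 libraries were the higher ones, and the siCtrl libraries of a batch differed by over 1.5 times. The means were 19.0 ± 6.41 and 25.2 ± 4.61 CPM (SD, n = 4 each), and the log2 fold change was 0.42 (SE 0.16; 0.07 to 0.77; adjusted p 0.21, edgeR). POLD3, another delta subunit, had 0.12, POLE of the leading-strand polymerase 0.06 and its subunit POLE2 -0.13. The polymerase alpha subunits POLA1 and POLA2 and the primase PRIM1, which start each new strand, had 0.02, 0.05 and -0.09.

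Of 4 genes for lagging-strand processing and single-strand binding, 0 were called. RPA1 (chromosome 17, 1829702 to 1900082), the large subunit of the single-strand DNA binding protein RPA, stood at 80.4, 97.5, 58.9 and 71.8 CPM in siCtrl and 92.4, 97.6, 81.0 and 88.7 CPM in siNAT10. The batch 2 groups were apart and the batch 1 groups overlapped. The means were 77.1 ± 16.2 and 89.9 ± 6.99 CPM (SD, n = 4 each), and the log2 fold change was 0.24 (SE 0.11; 0.0019 to 0.47; adjusted p 0.31, edgeR). RPA2 had 0.13 (-0.10 to 0.35). FEN1, the nuclease that trims Okazaki fragment flaps, had -0.23 (-0.58 to 0.12), and LIG1, the ligase that joins them, -0.03.

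All 4 nucleotide supply genes had estimates below 0, with a median of -0.05, and RRM2 was the only one beyond -0.1. RRM2 (chromosome 2, 10120698 to 10211725), the S-phase small subunit of ribonucleotide reductase, stood at 285, 308, 247 and 244 CPM in siCtrl and 177, 250.4, 211 and 178 CPM in siNAT10 replicates 1 to 4. Each siNAT10 library was below both siCtrl libraries of its batch, although siNAT10 replicate 2 was above both siCtrl libraries of batch 2. The means were 271 ± 30.7 and 204 ± 34.5 CPM (SD, n = 4 each).

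The fitted log2 fold change of RRM2 was -0.40 (SE 0.12; -0.65 to -0.16), a fold of 0.76 with an interval of 0.64 to 0.90, and the adjusted p of 0.082 missed the threshold (edgeR). With the replicate number as a block, which groups same-numbered libraries, the estimate was -0.42 and the adjusted p 0.037, and RRM2 was the 1 of 45 called (3.28% of all genes). The DESeq2 test gave -0.39 with an adjusted p of 0.027 (4.85% called of the 11690 genes with an adjusted p), and edgeR without a filter on low counts -0.41 with 0.022 (4.22% of the same 13840 genes called). Over all 17 alternatives the estimate ran from -0.49 to -0.30 and the adjusted p from 0.022 to 0.72. Leaving out any 1 library gave adjusted p values of 0.090 to 0.25.

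The other nucleotide supply genes had estimates nearer 0. RRM1, the large subunit of the same enzyme, stood at 157, 195, 137 and 127 CPM in siCtrl and 137, 163, 137 and 159.8 CPM in siNAT10. Its groups overlapped, and its log2 fold change was -0.03 (-0.28 to 0.22). The ratio of RRM1 to RRM2 RNA was 0.550, 0.633, 0.556 and 0.520 in siCtrl and 0.771, 0.651, 0.650 and 0.897 in siNAT10, higher in every siNAT10 library, a comparison made after the values were seen. Thymidylate synthase (TYMS), which makes dTMP, had -0.02 (-0.24 to 0.20), and thymidine kinase (TK1), which salvages thymidine, -0.08 (-0.33 to 0.18).

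**Figure D2:**
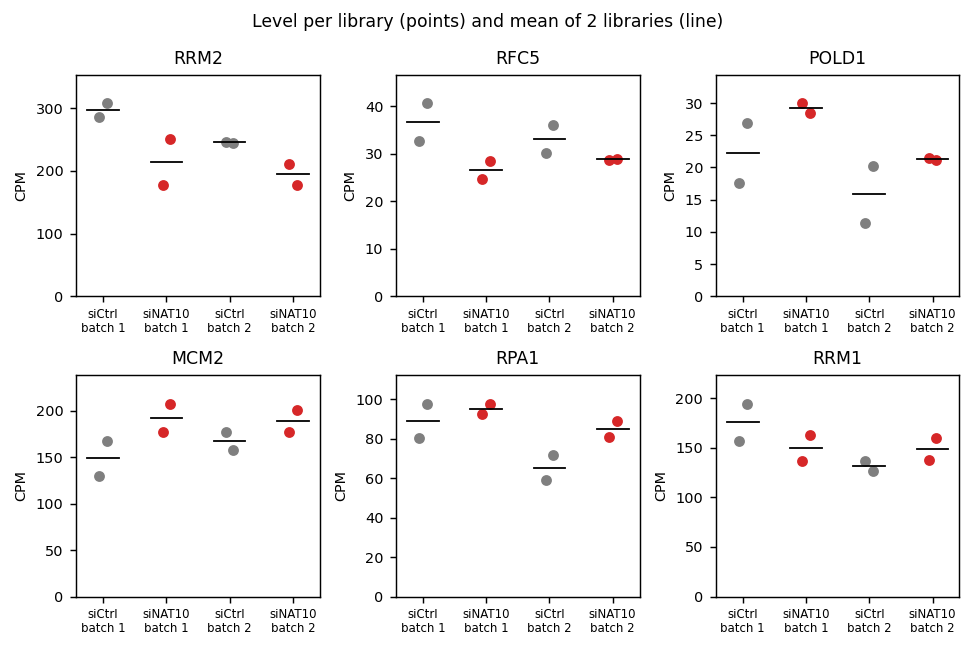
CPM (vertical axis, from 0) of RRM2, RFC5, POLD1, MCM2, RPA1 and RRM1 in each library, grouped by siRNA and batch (horizontal axis), with points for libraries and a line for the mean of 2. RRM2 and RFC5 are lower and POLD1 is higher in both siNAT10 libraries of each batch, and RRM1 overlaps between the groups of 4.

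The 5 measured genes of G1/S control had 0 calls and a median of 0.05. CCND1, which with CDK4 and CDK6 starts phosphorylation of the retinoblastoma protein, stood at 267, 225, 589 and 461 CPM in siCtrl and 256, 315, 579 and 393 CPM in siNAT10. Its libraries divided by batch and not by siRNA, and its log2 fold change was 0.05 (-0.24 to 0.34). Cyclin E1 (CCNE1) had 0.08 (-0.14 to 0.31), its kinase CDK2 0.14 (-0.08 to 0.35) and the transcription factor E2F1 -0.10 (-0.34 to 0.15). CCNE2 had -0.24, with an interval of -1.08 to 0.61 that the low counts leave wide.

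The 3 chromatin genes had 0 calls and a median of 0.17. UHRF1, which helps to keep DNA methylation on newly made DNA, had 0.24 at 2.53 to 4.20 CPM, with an interval of -0.22 to 0.70. CHAF1A, the large subunit of the CAF-1 histone chaperone and the most abundant of the 3, had 0.17 (-0.07 to 0.41), and CHAF1B of the same complex -0.09 (-0.39 to 0.21). The median siRNA estimate was -0.01 over the 20 tested genes with E2F letters in a promoter window and -0.03 over the 17 without.

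The list as a whole stood at different heights in single libraries of a group. Relative to the siCtrl mean of the same batch, the median over the 45 genes was -0.14 on the log2 scale in siNAT10 replicate 1, 0.07 in replicate 2, 0.08 in replicate 3 and 0.0051 in replicate 4. In siNAT10 replicate 1, 35 of 45 genes lay below that mean, whereas 30 lay above it in replicate 2, 31 in replicate 3 and 23 in replicate 4. The siCtrl libraries lay 0.07 on either side of their mean in batch 1 and 0.04 in batch 2. In siNAT10 replicate 1 the lowest value of batch 1 was found for 48.9% of the 45 genes, beside 27.2% of all genes, and in siNAT10 replicate 2 the highest for 42.2%, beside 23.2% of all genes. The median fitted change was 0.06 without siNAT10 replicate 1 and -0.02 without siNAT10 replicate 2.

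**Figure D3:**
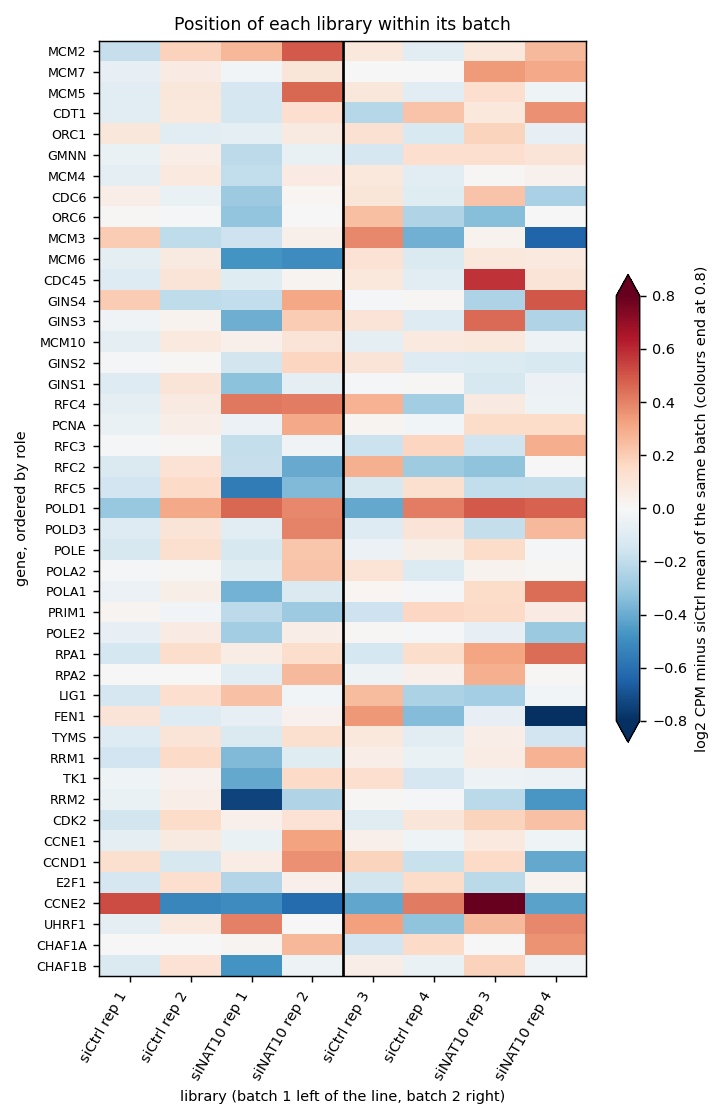
Heat map of log2 CPM minus the siCtrl mean of the same batch, with genes by role on the vertical axis, libraries on the horizontal axis, red for higher and blue for lower, and colours ending at 0.8. The column of siNAT10 replicate 1 is mostly blue (35 of 45 genes below 0) and that of siNAT10 replicate 2 mostly red (30 of 45 above 0).

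The batches were also fitted one at a time. In batch 1 alone 0 of 45 genes were called (1.19% of all genes) and 6 had an unadjusted p under 0.05 (13.2%). In batch 2 alone 0 of 45 were called (0% of all genes) and 1 gene, RPA1, had an unadjusted p under 0.05 (7.04%). The estimates had the same sign in both batches for 27 of 45 genes (60%), beside 61.9% of all genes. Pearson's r between the batches' estimates was 0.21 across the 45 genes, which are not independent replicates. RRM2 had -0.47 in batch 1 and -0.33 in batch 2, RFC5 -0.45 and -0.19, POLD1 0.41 and 0.44, MCM2 0.37 and 0.17, and RPA1 0.10 and 0.38.

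No interaction of siRNA and batch was called, in 0 of 45 genes and 0% of all genes. At an unadjusted p under 0.05 there were 2 of 45, MCM6 and POLA1, beside 3.04% of all genes. MCM6 stood at 13.0 and 14.4 CPM in siCtrl and 9.80 and 9.63 CPM in siNAT10 in batch 1, and at 11.5 and 9.83 against 11.3 and 11.2 CPM in batch 2. The siNAT10 libraries were below both siCtrl libraries in batch 1 and within them in batch 2 (interaction 0.57 on the log2 scale, unadjusted p 0.049, adjusted p 0.9996, edgeR). POLA1 had -0.23 in batch 1 and 0.31 in batch 2 (interaction 0.54, unadjusted p 0.0499, adjusted p 0.9996, edgeR).

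**Figure D4:**
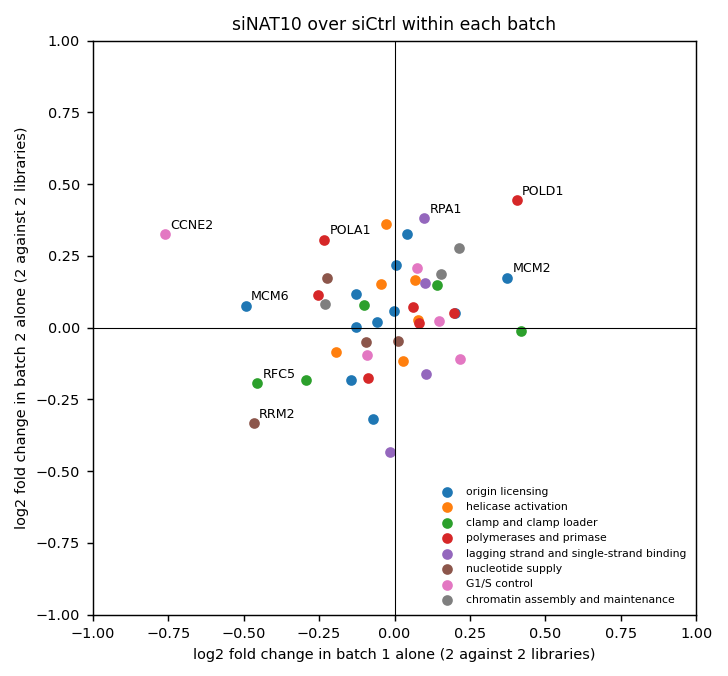
Log2 fold change of siNAT10 over siCtrl in batch 1 alone (horizontal axis) against batch 2 alone (vertical axis), 1 point per gene, coloured by role. RRM2 and RFC5 lie below 0 and POLD1, MCM2 and RPA1 above 0 on both axes, and 27 of 45 genes have the same sign.

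The replication genes were also compared between the batches, over both siRNAs. The batch term was called for 11 of 45, beside 25.3% of all genes, 4 of them higher in batch 2 (13% of all genes) and 7 lower (12.2% of all genes). In 30 of 45 genes the batch estimate was larger in size than the siRNA estimate. The median size of the batch difference was 0.19, beside 0.26 over all genes.

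CCND1 rose from a mean of 266 CPM in batch 1 to 505 CPM in batch 2, a log2 difference of 0.93 (adjusted p 1.9e-04, edgeR), with 225 to 315 CPM in the first batch and 393 to 589 CPM in the other. FEN1 rose from 103 to 189.5 CPM (0.86; adjusted p 0.0014, edgeR), with batch 1 at 111, 96.5, 99.3 and 106 CPM and batch 2 at 269, 167, 202 and 120.4 CPM. LIG1 (0.43; adjusted p 0.023, edgeR) and RPA2 (0.37; 0.018) of the same role were also called higher in batch 2. RPA1 was not called and had -0.31.

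The 7 genes called lower in batch 2 came from licensing, the polymerases and G1/S control. POLA2 fell from 26.2 to 15.6 CPM (log2 difference -0.74, adjusted p 2.9e-04, edgeR) and PRIM1, which works in the same enzyme, from 12.4 to 7.79 CPM (-0.68; 0.0026). CDT1 fell from 133 to 90.2 CPM (-0.56; 0.0031) and MCM5 from 71.0 to 49.7 CPM (-0.51; 0.0070). POLD1 (-0.48), MCM4 (-0.32) and CDK2 (-0.30) had adjusted p values of 0.043, 0.028 and 0.039. The batches did not overlap in 9 of 45 genes, beside 22.7% of all genes, and these were the called genes other than POLD1 and CDK2. The calls of CDT1, MCM5, POLA2, PRIM1, FEN1 and CCND1 held when any 1 library was left out, and those of 5 genes did not. LIG1 had adjusted p values of 0.10 and 0.084 when control replicate 1 or 3 was dropped and 0.074 when knockdown replicate 2 was. RPA2 had 0.073 and 0.068 when knockdown replicate 1 or 3 was dropped. MCM4 had 0.068 to 0.11 when replicate 2 or 4 of the controls or 2 or 3 of the knockdown was dropped. POLD1 kept its call only without siCtrl replicate 1 or 4 (0.058 to 0.18 otherwise), and CDK2 only without siCtrl replicate 1 or siNAT10 replicate 4 (0.054 to 0.15 otherwise). What differed between the batches is not given in the labels and was not tested.

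**Figure D5:**
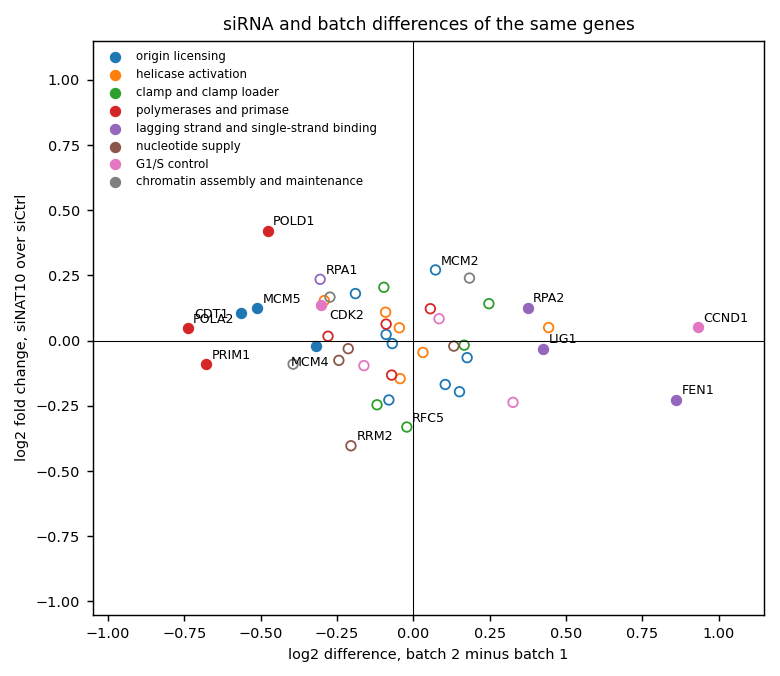
Batch difference (horizontal axis, log2, batch 2 minus batch 1) against siRNA difference (vertical axis, log2, siNAT10 over siCtrl) for the 45 genes, coloured by role, with both axes to the same scale and filled points for a called batch difference. The 11 filled points reach from -0.74 for POLA2 to 0.93 for CCND1 on the batch axis, whereas all siRNA differences lie between -0.40 and 0.42.

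Related genes outside the list were counted in the same way, beside 2.28% of all 13840 genes called (0.816% higher and 1.46% lower). Of 34 tested other replication factors 0 were called, with a median of 0.0068. The one farthest from 0 was DSCC1, part of an alternative clamp loader, at -0.44 (adjusted p 0.084, edgeR, and 0.048 with the replicate block). Of 11 other deoxynucleotide enzymes 0 were called, with a median of -0.09. RRM2B, the small subunit that can replace RRM2 in ribonucleotide reductase outside S phase, was looked up after the RRM2 values were seen. It stood at 26.7, 30.8, 32.7 and 30.5 CPM in siCtrl and 41.5, 32.0, 36.0 and 38.5 CPM in siNAT10. Its log2 fold change was 0.30 and its adjusted p 0.20 (edgeR). The ratio of RRM2 to RRM2B was 10.7, 9.99, 7.56 and 8.01 in siCtrl and 4.27, 7.81, 5.86 and 4.62 in siNAT10. It was lower in both siNAT10 libraries than in both siCtrl libraries of each batch, and across batches the groups overlapped. Within each batch RRM2 was lower and RRM2B higher in both siNAT10 libraries, which fixed this order, so that it adds no evidence.

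Of 27 other G1/S regulators 1 was called, higher (0.816% of all genes), and 0 lower (1.46% of all genes), with a median of 0.04. It was RB1 (chromosome 13, 48303744 to 48599436), the retinoblastoma protein that holds E2F factors in check. RB1 stood at 36.1, 37.5, 23.1 and 20.0 CPM in siCtrl and 49.9, 57.5, 27.0 and 30.1 CPM in siNAT10. Within each batch both siNAT10 libraries were above both siCtrl libraries (6.76% of all genes), and across batches the groups overlapped. RB1 rose by 0.48 on the log2 scale (SE 0.11; 0.25 to 0.70; adjusted p 0.028, edgeR). Among control libraries, leaving out replicate 1, 2 or 4 gave an adjusted p of 0.12, 0.088 or 0.071. Among knockdown libraries, leaving out replicate 1 or 2 gave 0.064 or 0.12, so that the call needed each of these 5. The RB1 estimate was 0.42 to 0.54 over the 8 fits that each left out 1 library. Those fits called 75 to 286 of all genes, beside 315 with all libraries. The adjusted p of RB1 was 0.055 from batch 1 and 0.72 from batch 2 fitted singly, and 0.70 with no batch term. The call held with the replicate block (0.021), with DESeq2 (0.0031) and without a filter (0.018).

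TFDP1, the partner with which E2F factors bind DNA, was not called in edgeR and was looked up after its values were seen. It stood at 52.2, 63.7, 74.3 and 73.9 CPM in siCtrl and 76.9, 75.5, 87.6 and 98.4 CPM in siNAT10. All 4 siNAT10 libraries were above all 4 siCtrl libraries, and 5.4% of all genes had no overlap between the groups, on either side. Its log2 fold change was 0.36 (SE 0.10; 0.15 to 0.57), with an adjusted p of 0.072 in edgeR, 0.054 with the replicate block and 0.017 with DESeq2, and of 0.017 to 0.72 over all 17 alternatives.

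Of 21 checkpoint and repair genes 0 were called (2.28% of all genes), with a median of 0.0060. ETAA1, an activator of the ATR kinase at stalled forks, lay farthest from 0 at 0.44 (adjusted p 0.29, edgeR). Of 19 G2/M and mitosis genes 1 was called, lower (1.46% of all genes), and 0 higher (0.816% of all genes). Their median was -0.18, beside -0.0024 over all genes, and 17 of 19 estimates were below 0. The median of the 19 was -0.29 in batch 1 alone and -0.07 in batch 2 alone. Over all genes it was -0.0047 and 0.0030. Whether the batches differed for this list was not tested, and its genes are not independent replicates. KIF20A, a kinesin of late mitosis, stood at 27.0, 35.6, 32.3 and 25.6 CPM in siCtrl and 17.6, 19.5, 25.8 and 17.3 CPM in siNAT10. KIF20A fell by 0.59 on the log2 scale (adjusted p 0.043, edgeR), and the adjusted p was 0.081 to 0.16 in 6 of 8 fits that each left out 1 library (controls 1, 2 or 3, or knockdown 1, 2 or 4), 0.058 with library size alone, 0.31 with no batch term and 0.72 in batch 2 alone. It was 0.0096 with the replicate block, 0.014 with DESeq2, 0.0012 without a filter and 0.019 in batch 1 alone. The difference between the replication and the mitosis genes was not tested.

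The counting could have mixed some of these genes with others. In 9 of the 46 another annotated gene lies over the last 500 bases of the 3′ end, on the same strand for POLD1 and PRIM1 and on the opposite strand for CCND1, CCNE2, CDC45, GINS2, GINS4, MCM2 and TYMS. Over PRIM1 it is the abundant gene NACA, so that the PRIM1 level is uncertain, and over GINS2 it is GSE1. The strand used in counting is not stated, so that reads of opposite genes may not have been separated. Annotated pseudogene copies of 8 of the genes had 0 counts or were not listed in the count table, which were not told apart. Handling of multimapping reads is not given, so this cannot show that no reads were shared with copies.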

How the data were processed

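RNA from 8 HepG2 libraries was measured with a Lexogen QuantSeq 3′ kit, called FWD in the series text and REV in the sample protocols. The deposited values are whole-number counts per gene, made by the authors with STAR 2.7.9a on GRCh38 and featureCounts, per the labels, after Trim Galore 0.6.10 with cutadapt 3.5, per the submitters' processing notes. The annotation release, strand setting and handling of multimapping reads are not given in the sources used here. Depth was 9731718 to 27977110 counts per library, and its limits cover counting error only.

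Symbols, loci and neighbouring genes came from GENCODE 44 (61458 of 86369 identifiers matched), and promoter windows of 300 bases from RefSeq. Genes were kept with filterByExpr (minimum count 10) and tested in edgeR 4.0.16 (R 4.3.3; TMM, glmQLFit, glmQLFTest, batch and siRNA as terms), with Benjamini-Hochberg adjustment over all 13840 genes and a call at an adjusted p under 0.05. Standard errors and 95% intervals came from the F statistic. The interaction, the batch term and each batch alone were fitted in the same way. The script was tested on simulated data. Alternatives were DESeq2 1.42.0, a replicate block, other scalings and filters, no batch term and each library left out.

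Deviations of same-numbered libraries from their group means correlated across genes (0.39, 0.38, 0.45 and 0.36). Group means were taken over both batches, so the deviations keep the batch difference. Differently numbered libraries of a batch were not compared, so the values cannot show pairing by number. The replicate block was fitted as an alternative only. The members and the related lists were chosen with earlier results of these data known. Genes named are NAT10, members that were called or had an unadjusted p under 0.05, the most abundant and the most changed member of each role, and in each related list the called genes or else the one farthest from 0, of which 1 is not reported here. The remaining members are named briefly so that each is accounted for.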

Additional observations from a re-analysis of the deposited data

Results flagged for a closer look

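In 5 of the 90 groups of 4 libraries examined (45 genes in siCtrl and in siNAT10), 1 library stood far from the other 3, where chance gives about 4.5. GINS1 was 26.9 CPM in siCtrl replicate 2 and 23.3 to 23.6 CPM in the other siCtrl libraries. GINS2 was 47.4 CPM in siCtrl replicate 3 and 41.0 to 41.6 CPM in the others. RFC5 was 24.7 CPM in siNAT10 replicate 1 and 28.5 to 28.8 CPM in the other siNAT10 libraries, which still lay below all siCtrl libraries. TK1 was 89.7 CPM in siNAT10 replicate 2 and 60.6 to 64.8 CPM in the others. CCNE2 was 2.20 CPM in siNAT10 replicate 3 and 0.80 to 0.88 CPM in the others, a gene of few counts.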

How the results depend on the processing

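The count of replication genes called between the siRNAs was 0 under 14 alternatives, including each library left out (0 to 0), and 1, RRM2, with no filter on low counts, with the replicate block and with DESeq2. The replicate block, which pairs same-numbered libraries, changed no other call among these 45 genes. The number at an unadjusted p under 0.05 was 2 without siCtrl replicate 1, 3 without siNAT10 replicate 2, 2 with no batch term and 1 from batch 2. All-gene calls at an adjusted p under 0.05 also fell, from 2.28% to 0.742%, 0.534%, 0.108% and 0% in these fits. At the unadjusted threshold 15.7% of all genes passed in the main fit and 7.04% in batch 2, and the share was not counted for the others named here. The median estimate of the 45 genes moved less than its spread over siNAT10 libraries (SD 0.10), from -0.02 to 0.06, and with library size alone 29 estimates were above 0 and 16 below. Genes called between the batches numbered 7 (without siNAT10 replicate 2) to 14 (without siNAT10 replicate 4) when 1 library was left out, 12 with DESeq2 and 13 without a filter. The main fit called 11, beside 25.3% of all genes, and the all-gene share was not counted in the other fits. The interaction count stayed at 0 in all 13 alternatives. NAT10 was called in 16 of 17 alternatives, with estimates of -1.79 to -1.52 when 1 library was left out. It missed the threshold in batch 2 alone (-1.58; adjusted p 0.086, edgeR). Over all genes 15 were called without the batch term, 454 with the block, 567 with DESeq2, 595 without a filter, 173 in batch 1 alone, 0 in batch 2 alone and 75 to 286 when 1 library was left out, beside 315. No sign of a called value reversed. Precision was lowest for CCNE2, whose interval half-width was 0.84.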
